A study of Rattus norvegicus with 8 samples.

Results

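Rat Sertoli cells given NP and MBP together were compared with control cells on a gene-level array, and the mixture was set against the sum of what each compound gave alone. Its members are the probe sets outside the control categories that carry 1 gene symbol and whose mean log2 signal over the arrays reached the median of all non-control sets, 7.50. They number 10761 of the 29214 probe sets on the array, and they stand for 9998 genes, each read by its brightest member set. Of the 18771 non-control sets with 1 symbol, 8010 lay below that signal.

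Sertoli cells were isolated from rat testes and grown in DMEM/F12 with serum. The NP+MBP culture received 0.1 µM NP with 0.1 mM MBP, the NP culture 0.1 µM NP, the MBP culture 0.1 mM MBP and the control culture solvent, each for 24 hours. Neither NP nor MBP is spelled out in the labels, and the sources used here give neither the age and strain of the rats nor how many were pooled. Each condition was read on 1 array. No difference below therefore has a replicate check or carries a test, and precision is limited by having 1 array for each culture.

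The Sertoli cell is the somatic cell of the seminiferous tubule that supports germ cells. Neighbouring Sertoli cells are joined by tight junctions built from claudins, occludin and their scaffold proteins, which with adherens junctions and desmosomes form the blood-testis barrier. Gene-level arrays read RNA of the whole culture, so fewer cells of a type and less RNA per cell cannot be told apart.

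Signal of the 9998 genes on the NP+MBP array lay close to control. The difference NP+MBP minus control had a median of 0.035 and an SD over genes of 0.115 on the log2 scale. It was at least 1.5-fold (0.58 log2) higher for 6 genes, 0.06% of those measured, and at least 1.5-fold lower for 0. At 1.3-fold (0.38 log2), 66 genes (0.66%) were higher and 20 (0.2%) lower. Without the signal filter the balance turned, with 128 of 17582 genes higher (0.728%) and 282 lower (1.60%). The single compounds gave smaller counts at 1.3-fold, with 36 higher (0.36%) and 10 lower (0.1%) for MBP minus control and 11 higher (0.11%) and 7 lower (0.07%) for NP minus control. Between the treated arrays, NP+MBP minus NP held 30 higher genes (0.3%) and 4 lower ones (0.04%), while NP+MBP minus MBP held 0 in either direction. The SD of NP+MBP minus MBP was 0.0568, against 0.0766 for NP+MBP minus NP. The difference from control was above 0 for 66.5% of genes as deposited. That share was 78.2% after centring the arrays on their medians, 48.8% after quantile normalization and 50.5% after cyclic loess, so no direction is read from it.

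Among the highest genes the MBP array sat beside NP+MBP, and the NP array beside control. Myoz2, which encodes a calcineurin-binding protein of the muscle Z-disc, had a log2 signal of 8.07 on the NP+MBP array, 7.87 on the MBP array, 7.19 on the NP array and 7.27 on the control array. Its difference NP+MBP minus control, 0.80, was the highest of the 9998 genes. It passed the signal filter through the NP+MBP and MBP arrays, since both other arrays were below 7.50. Scn3b, an auxiliary beta subunit of voltage-gated sodium channels, stood at 8.81 in NP+MBP, 8.79 in MBP, 8.22 in NP and 8.09 in control, a difference of 0.72. Fgl2, a fibrinogen-like protein with prothrombinase and immune-regulating activity, read 9.26 in NP+MBP, 9.28 in MBP, 8.64 in NP and 8.67 in control, 0.59 higher in NP+MBP than in control. For both genes the NP+MBP and MBP arrays were level. The adaptor gene Dapp1, whose product binds phosphoinositides in lymphocytes, gave 7.94 in NP+MBP, 7.84 in MBP, 7.46 in NP and 7.36 in control. Dapp1 likewise passed the filter only through the arrays with MBP, so its layout is given as a description. Pla2g7, the plasma platelet-activating factor acetylhydrolase, was at 10.61 in NP+MBP, 10.52 in MBP, 10.14 in NP and 10.03 in control. Kcne1, an accessory subunit of a voltage-gated potassium channel, measured 9.01 in NP+MBP, 8.93 in MBP, 8.48 in NP and 8.44 in control. The aldehyde reductase gene Akr7a3 read 9.38 in NP+MBP, 9.28 in MBP, 8.82 in NP and 8.83 in control. Efhd1, a calcium-binding protein of mitochondria, was like Fgl2 highest with MBP alone, at 8.94 in NP+MBP, 9.02 in MBP, 8.41 in NP and 8.43 in control.

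**Figure D1:**
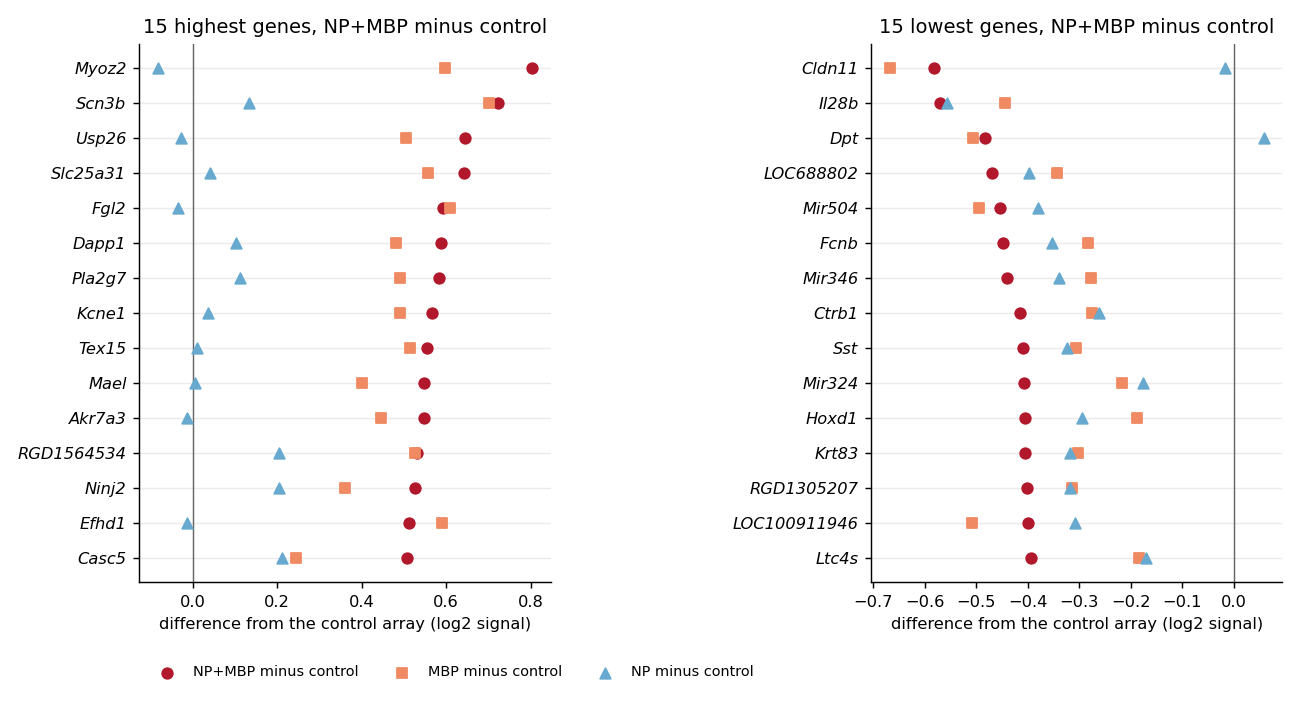
Difference from the control array in log2 signal (horizontal axis) for the 15 highest genes (left) and 15 lowest genes (right) of NP+MBP minus control, with 1 point per treated array. On the left the MBP squares lie near the NP+MBP circles for most genes and the NP triangles near 0, except for Casc5, Ninj2 and RGD1564534, whose NP points lie between 0.20 and 0.21. On the right only Cldn11 and Dpt show that layout.

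The plot of the 15 highest and lowest genes shows this layout, and counts over the larger set describe it. Of the 66 genes at least 1.3-fold higher, the MBP array alone was nearer to NP+MBP than to control in 38 (57.6%), both single arrays were in 26 (39.4%), the NP array alone in 1 and neither in 1. Over all 6645 genes above 0 the MBP array alone was nearer in 25.7% and both single arrays in 42.0%. The NP array was within 0.1 log2 of control in 21 of the 66, and the NP+MBP array within 0.1 of MBP in 36. The median difference over these genes was 0.43 for NP+MBP, 0.36 for MBP and 0.19 for NP, each minus control. The 66 were chosen for NP+MBP minus control, and the same control value enters NP minus control, MBP minus control and each call of the nearer array. These counts, and those for the lower genes below, are therefore a description. Of the 66, 10 had control below 7.50, and 5 had NP and control both below it and so passed the filter through the arrays with MBP.

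Genes known from germ cells made up 4 of the 15 highest, and Tex101 followed close behind. Germline genes are normally silent in somatic cells, and many encode meiotic proteins or factors of the pathway that silences transposons through small RNAs bound to Piwi proteins. The X-linked deubiquitinase gene Usp26, known from testis, had 8.32 in NP+MBP, 8.18 in MBP, 7.64 in NP and 7.67 in control. Slc25a31, the ADP/ATP carrier of male germ cells in mouse, had 8.18 in NP+MBP, 8.09 in MBP, 7.58 in NP and 7.54 in control. Both were over 1.5-fold higher in NP+MBP than in control, at 0.65 and 0.64. Mael, a factor of the Piwi pathway in mouse, read 8.43 in NP+MBP, 8.28 in MBP, 7.89 in NP and 7.88 in control. Tex15, needed in mouse for meiotic recombination and transposon silencing, read 8.36 in NP+MBP, 8.32 in MBP, 7.82 in NP and 7.81 in control. Tex101, a surface glycoprotein of germ cells, stood at 7.97 in NP+MBP, 7.92 in MBP, 7.41 in NP and 7.47 in control. Tex101 passed the signal filter through the NP+MBP and MBP arrays. In all 5 the NP array was within 0.1 of control and the MBP array was high together with the mixture. Their departures from additivity were between 0.03 and 0.17.

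The germline and meiosis list was chosen with earlier results of these data known, so its counts are a description only. It had 65 genes on the array, of which 15 passed the signal filter. Of those 15, 10 were above 0, a share near the 66.5% of all genes, and the list median was 0.061, against 0.035 for all genes. The 5 genes given above were at least 1.3-fold higher and 0 were lower, beside 0.66% and 0.2% of all genes. The other 10 lay between Mageh1 at 0.13 and Rhox13 at -0.21, among them the Piwi gene Piwil4 at 0.08 and the tudor-domain gene Tdrd7 at -0.05. Without the filter, 10 of the 65 (15.4%) were at least 1.3-fold higher and 2 lower, where over all 17582 genes without the filter 0.728% were higher and 1.60% lower. In 8 of those 10 the NP array was within 0.1 of control, and in 9 the MBP array was nearer NP+MBP than control. The 5 below the filter were Dazl, Taf7l, Smc1b, Sycp1 and Stk31. Sycp1 was at 5.21 in NP+MBP and 4.76 in control, and Stk31 at 6.27 in NP+MBP and 5.87 in control. Background sets that match no rat sequence had medians of 5.11 in NP+MBP and 5.37 in control, so Sycp1 lay at the level of background. Taf7l, a germ-cell variant of a general transcription factor subunit, had 7.53 in NP+MBP, 7.47 in MBP, 6.90 in NP and 6.84 in control. Smc1b, a cohesin subunit of meiosis, had 6.25 in NP+MBP, 6.01 in MBP, 5.93 in NP and 5.58 in control. The 2 lower ones were Magea9 and Rhox8, at -0.40 each. Germ cell markers as a whole lay on both sides of control. Of the 25 on the array 12 were above 0, against 49.1% of all genes without the filter. Their summed linear signal was 5203 in NP+MBP, 5282 in MBP, 4967 in NP and 5112 in control. Uchl1, the brightest of them at 11.07 in NP+MBP and 11.09 in control, weighs most in that sum. The protamine genes of spermatids, Prm1 and Prm2, were lower in NP+MBP than in control, at -0.10 and -0.22. The part of remaining germ cells in the germline differences was not tested.

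Promoter sequences are shown because these germline genes were high on the same arrays. The windows run from 250 bases before to 50 bases after the RefSeq gene start on GRCr8, at chr13:81029574-81029873 (minus strand) for Mael, chr2:125623081-125623380 (plus) for Slc25a31, chr1:89387291-89387590 (minus) for Tex101 and chrX:136284458-136284757 (minus) for Usp26. Capitals mark the E-box CACGTG and the E2F-type motif GGCGGGA, both searched on both strands.
Mael: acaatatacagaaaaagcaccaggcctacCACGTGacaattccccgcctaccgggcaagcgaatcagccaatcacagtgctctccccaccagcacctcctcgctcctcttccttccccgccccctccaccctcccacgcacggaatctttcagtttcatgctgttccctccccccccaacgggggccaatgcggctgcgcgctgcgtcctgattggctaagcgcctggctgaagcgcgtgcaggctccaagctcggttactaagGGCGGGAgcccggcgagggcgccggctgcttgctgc
Slc25a31: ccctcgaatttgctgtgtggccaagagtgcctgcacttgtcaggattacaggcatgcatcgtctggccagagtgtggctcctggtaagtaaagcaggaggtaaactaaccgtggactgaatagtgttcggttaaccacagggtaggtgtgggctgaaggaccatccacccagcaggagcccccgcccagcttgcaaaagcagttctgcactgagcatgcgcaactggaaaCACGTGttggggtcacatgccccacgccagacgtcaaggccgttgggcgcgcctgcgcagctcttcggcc
Tex101: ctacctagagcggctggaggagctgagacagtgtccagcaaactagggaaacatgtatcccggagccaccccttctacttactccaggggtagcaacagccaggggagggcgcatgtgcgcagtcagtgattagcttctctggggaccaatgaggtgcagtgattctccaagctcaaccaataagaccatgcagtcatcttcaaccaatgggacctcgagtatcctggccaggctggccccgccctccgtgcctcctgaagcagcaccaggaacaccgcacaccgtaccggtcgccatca
Usp26: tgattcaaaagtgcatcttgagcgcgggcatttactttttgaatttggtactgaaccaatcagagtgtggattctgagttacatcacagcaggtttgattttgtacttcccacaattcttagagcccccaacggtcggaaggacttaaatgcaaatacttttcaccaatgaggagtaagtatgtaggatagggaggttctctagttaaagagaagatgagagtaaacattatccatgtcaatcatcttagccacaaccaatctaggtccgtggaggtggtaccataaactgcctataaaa
Counted from the gene start, the E-box begins at -221 in Mael and at -20 in Slc25a31, and the E2F-type motif begins at 15 in Mael. Neither motif is in the windows of Tex101 and Usp26. Of the 7087 promoters matched to genes measured here, 10.1% hold the E-box and 22.3% the E2F-type motif, against 6.65% and 11.2% of all 27457 RefSeq promoters. Of the 14 germline members with a promoter, 3 hold the E-box and 2 the E2F-type motif. CG dinucleotides number 22 in the Mael window, 14 in Slc25a31, 11 in Tex101 and 5 in Usp26, where the median is 22 for the genes measured and 7 for all promoters. A match is a description of the letters only.

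Tight-junction genes held both the lowest gene of the comparison and a higher one. Cldn11, the claudin that forms the strands of the Sertoli cell tight junction, was at 9.46 in NP+MBP, 9.37 in MBP, 10.02 in NP and 10.04 in control. The NP+MBP and MBP arrays were low and the NP array level with control, and NP+MBP minus control was -0.58. Ocln, which encodes occludin, was at 8.49 in NP+MBP, 8.37 in MBP, 8.23 in NP and 8.06 in control, 0.43 higher in NP+MBP. The junctional adhesion molecule gene F11r was at 9.70 in NP+MBP, 9.68 in MBP, 9.45 in NP and 9.42 in control, also with the MBP array beside the mixture. The scaffold genes Tjp1, Cgn and Cgnl1 lay between 0.13 and 0.16, below the 1.3-fold mark. Of 36 tight-junction genes on the array 17 passed the filter, 11 of them above 0, where 66.5% of all genes were, with a median of 0.076 for NP+MBP, 0.027 for MBP and -0.001 for NP. Over all 36 the median for NP+MBP was -0.039, with 14 above 0, beside 49.1% of all genes without the filter. The list thus has no direction that holds without it. On the array's genome build (RGSC3.4) the Cldn11 set lies on chromosome 2 from 116626421 to 116639732 on the minus strand. Its RefSeq promoter window, chr2:114149490-114149789 on the minus strand of GRCr8, is shown for comparison with the germline genes.
Cldn11: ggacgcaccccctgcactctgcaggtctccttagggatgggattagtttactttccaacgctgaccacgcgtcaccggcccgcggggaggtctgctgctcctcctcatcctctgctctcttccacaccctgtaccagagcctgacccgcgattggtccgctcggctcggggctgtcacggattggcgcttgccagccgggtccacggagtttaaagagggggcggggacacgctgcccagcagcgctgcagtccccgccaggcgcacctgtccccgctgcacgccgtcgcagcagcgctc
It holds 26 CG dinucleotides and neither motif.

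Genes of adherens junctions, desmosomes and integrins held 1 member past 1.3-fold. Itga6, the laminin-binding integrin alpha-6 chain, was at 10.50 in NP+MBP, 10.41 in MBP, 10.12 in NP and 10.08 in control, a difference of 0.43. The desmosomal cadherin gene Dsg2 was at 8.93 in NP+MBP, 8.86 in MBP, 8.62 in NP and 8.62 in control. Desmoplakin, Dsp, was at 9.19 in NP+MBP, 9.11 in MBP, 8.90 in NP and 8.96 in control. All 3 had NP at or near control. Of the 17 members of this list 14 were above 0, against 66.5% of all genes. At least 1.3-fold higher was 1 of them, beside 0.66% of all genes, and the list median was 0.057. The members Cdh2, Ctnna1, Vcl and Gja1 were between -0.02 and 0.01. Other junction members lay higher, with Ctnnb1 at 0.06, Jup at 0.13, Pvrl3 at 0.16, Pvrl2 at 0.18, Espn at 0.19 and Mllt4 at 0.21.

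Matrix and stromal genes included the lower genes with the MBP-like layout. The dermatopontin gene Dpt, whose product binds collagen and decorin in the matrix, was at 9.71 in NP+MBP, 9.68 in MBP, 10.25 in NP and 10.19 in control. Cd34, a sialomucin of stromal and vascular progenitors, was at 9.42 in NP+MBP, 9.39 in MBP, 9.92 in NP and 9.77 in control. Sfrp2 was at 7.86 in NP+MBP, 7.84 in MBP, 8.12 in NP and 8.14 in control, whereas its relative Sfrp1, like it a secreted inhibitor of Wnt, was at 9.65 in NP+MBP, 9.63 in MBP, 9.39 in NP and 9.32 in control. The relatives thus lay on opposite sides of control, at -0.28 and 0.33. Of 38 members 12 were above 0, against 66.5% of all genes. Only Dpt was past 1.3-fold in either direction, where 0.66% of all genes were higher and 0.2% lower. The list median, -0.022, turned to 0.011 when arrays were centred on their medians.

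Several receptors and signalling genes shared the layout. Nr0b2, an orphan nuclear receptor that represses other receptors in liver, was at 8.02 in NP+MBP, 8.09 in MBP, 7.60 in NP and 7.56 in control. Ret, the signalling receptor for GDNF, was at 7.83 in NP+MBP, 7.95 in MBP, 7.46 in NP and 7.43 in control. In both genes MBP alone was highest, and Ret passed the signal filter only through the arrays with MBP. The receptor list held 15 of 20 above 0, against 66.5% of all genes. Nr0b2 was its 1 member past 1.3-fold, beside 0.66% of all genes higher and 0.2% lower. The list median of 0.038 turned to -0.001 under quantile normalization. The FSH receptor gene Fshr was at 11.46 in NP+MBP, 11.58 in MBP, 11.72 in NP and 11.59 in control, so the arrays with NP alone and with the mixture stood at opposite ends. Genes whose symbols begin with Scn, Kcn or Cacn are mostly ion channel subunits, and leak and inward-rectifier potassium channels are among them. Of these, 11 of 38 members were above 0, against 66.5% of all genes, with a median of -0.076. Past 1.3-fold 3 were higher (Scn3b, Kcne1 and the leak channel gene Kcnk1) and 0 lower, beside 0.66% and 0.2% of all genes. Without the filter 3 of 131 were higher and 3 lower, beside 0.728% and 1.60% of all genes without it. Sarcomere genes gave 4 of 9 above 0, against 66.5% of all genes, and a median of -0.044. Besides Myoz2 the thick-filament gene Mybpc3 was at 8.71 in NP+MBP, 8.78 in MBP, 8.37 in NP and 8.40 in control.

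Cell-cycle and mitosis genes were the list furthest above control. Of 37 members 34 were above 0, against 66.5% of all genes, and 2 were at least 1.3-fold higher, beside 0.66% of all genes. The median was 0.128 for NP+MBP, 0.087 for MBP and 0.072 for NP, and the NP+MBP median kept its sign under each rescaling. NP+MBP lay above the other 3 arrays in 24 of the 37, where it did so in 37.4% of all genes. Both single arrays lay between control and NP+MBP in 21, a layout not counted over all genes. Casc5, also called Knl1, the kinetochore scaffold that recruits the checkpoint kinase BUB1, was at 9.35 in NP+MBP, 9.08 in MBP, 9.05 in NP and 8.84 in control. Ttk, the spindle checkpoint kinase Mps1, was at 8.18 in NP+MBP, 7.98 in MBP, 7.92 in NP and 7.76 in control. Rad51c, a recombination protein outside the list, was at 7.89 in NP+MBP, 7.68 in MBP, 7.67 in NP and 7.46 in control. In these genes NP+MBP lay 0.26 (Casc5), 0.21 (Ttk) and 0.21 (Rad51c) above the next array, and the departure from additivity was at most 0.05. The spindle gene Nusap1 had 8.72 in NP+MBP, 8.61 in MBP, 8.61 in NP and 8.37 in control, and the checkpoint kinase Bub1 had 8.82 in NP+MBP, 8.81 in MBP, 8.71 in NP and 8.50 in control. Cyclin A2, Ccna2, had 9.78 in NP+MBP, 9.67 in MBP, 9.72 in NP and 9.47 in control. Ccnd1, Mcm2 and E2f1 were the 3 members below control, at -0.05, -0.01 and -0.11. Casc5 was read by further sets, of which the member sets gave 0.28 and 0.31, so its mean over sets was 0.37 and under the 1.3-fold mark.

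**Figure D2:**
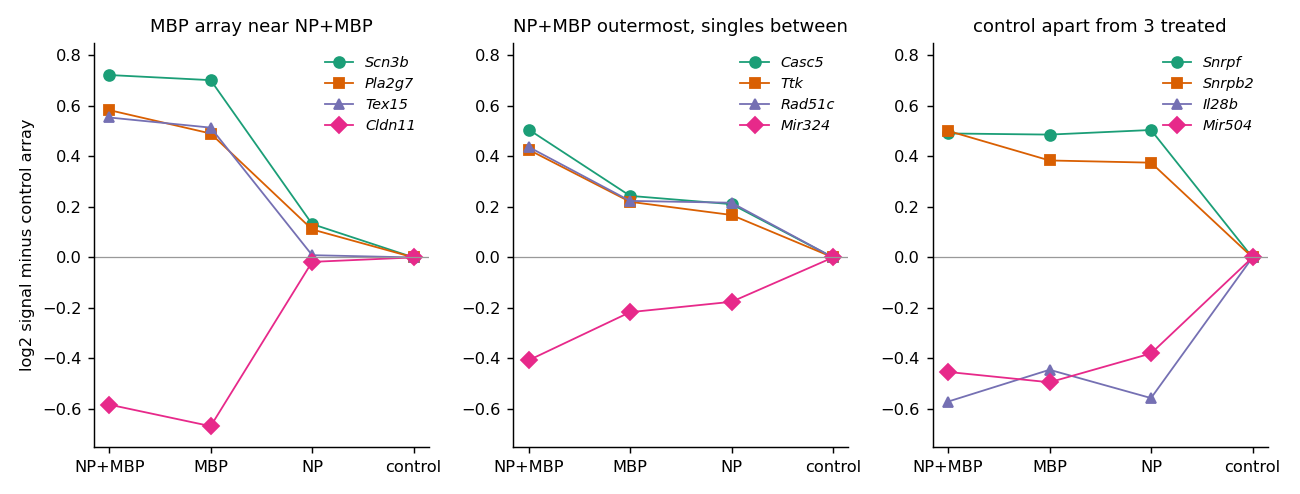
Log2 signal minus the control array (vertical axis) on each of the 4 arrays for 12 genes in 3 layouts, with 1 line per gene. In the left panel MBP lies beside NP+MBP, in the middle panel both single arrays lie between NP+MBP and control, and in the right panel control stands apart from all 3 treated arrays.

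The plot of 12 genes by array sets these layouts side by side. In the last of them control alone stood apart. Snrpf, a core protein of the spliceosomal small nuclear ribonucleoproteins, was at 8.11 in NP+MBP, 8.10 in MBP, 8.12 in NP and 7.62 in control. Snrpb2, a protein of the U2 particle, was at 9.51 in NP+MBP, 9.39 in MBP, 9.38 in NP and 9.01 in control. Magoh, of the exon junction complex, was at 7.65 in NP+MBP, 7.49 in MBP, 7.63 in NP and 7.23 in control, and its paralog Magohb at 8.04 in NP+MBP, 8.10 in MBP, 8.07 in NP and 7.77 in control. Magoh passed the signal filter only through the NP+MBP and NP arrays, so its layout is given as a description. All treated arrays were above control in these 4 genes, yet of the 33 members of the list 24 were above 0, a share near the 66.5% of all genes, with a median of 0.072 and 3 at least 1.3-fold higher, beside 0.66% of all genes. Over all 9998 genes the control array lay below the other 3 in 4831 (48.3%) and above them in 1989 (19.9%), while NP+MBP lay above the other 3 in 3743 (37.4%) and below them in 1765 (17.7%). A gap of 1.3-fold to the nearest other array was seen for control in 4 genes, 2 above and 2 below (0.02% each), and for NP+MBP, NP and MBP in 0. The furthest gaps of the NP+MBP array were 0.26 above (Casc5) and 0.24 below (the unnamed locus LOC680824), and next came Dcun1d2 at 0.23 above and the leukotriene synthase gene Ltc4s at 0.21 below.

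Among the genes that passed the filter, those lower in NP+MBP than in control were fewer than the higher ones, the reverse of the count without the filter, and more often of low signal. Of the 20 at least 1.3-fold lower, 13 had a mean log2 signal under 8, against 18 of the 66 higher ones, and 8 of the 20 had NP+MBP below 7.50. Both single arrays were nearer to NP+MBP than to control in 14 of the 20, and the medians were -0.41 for NP+MBP, -0.30 for MBP and -0.30 for NP. Il28b, an interferon lambda gene, was at 8.85 in NP+MBP, 8.98 in MBP, 8.87 in NP and 9.42 in control. Fcnb, a lectin of innate immunity, was at 7.35 in NP+MBP, 7.51 in MBP, 7.44 in NP and 7.80 in control. In both, control alone was high. The somatostatin gene Sst was at 7.67 in NP+MBP, 7.78 in MBP, 7.76 in NP and 8.08 in control. Ltc4s, which makes leukotriene C4, was at 7.33 in NP+MBP, 7.54 in MBP, 7.55 in NP and 7.72 in control, with NP+MBP lowest and the single arrays level. The homeobox gene Hoxd1 was at 7.37 in NP+MBP, 7.59 in MBP, 7.48 in NP and 7.78 in control.

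Among genes that passed the filter, microRNA hairpins were the list furthest below control. A gene-level set reads the region of the hairpin, not the mature strand. Of 222 hairpin sets on the array 50 passed the filter. Of these, 11 were above 0, against 66.5% of all genes. At least 1.3-fold lower were 5 and higher 0, beside 0.2% and 0.66% of all genes. The median was -0.17 for NP+MBP, -0.13 for MBP and -0.14 for NP. Without the filter 12 of the 222 were at least 1.3-fold lower and 4 higher, beside 1.60% and 0.728% of all genes without it. Their median was then -0.105, and other lists taken without the filter lay lower. These were Leydig cell markers at -0.194, sarcomere genes at -0.133, steroid synthesis genes at -0.132, channel symbols at -0.123 and homeobox and forkhead genes at -0.110. The 5 that passed were Mir504, Mir346, Mir324, Mir211 and Mir150. Mir504 was at 7.55 in NP+MBP, 7.51 in MBP, 7.62 in NP and 8.0 in control. Mir346 was at 8.84 in NP+MBP, 9.01 in MBP, 8.95 in NP and 9.28 in control, and Mir324 at 7.43 in NP+MBP, 7.62 in MBP, 7.66 in NP and 7.84 in control. All treated arrays were below control in these hairpins. Mature sequences of 4 of the 5 are given from RefSeq (GRCr8), with the seed, bases 2 to 8, in capitals.
rno-miR-504: aGACCCUGgucugcacucuguc
rno-miR-346: uGUCUGCCugagugccugccucu
rno-miR-324-5p: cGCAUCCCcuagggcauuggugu
rno-miR-324-3p: cCACUGCCccaggugcugcugg
rno-miR-211-5p: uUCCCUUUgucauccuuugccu
rno-miR-211-3p: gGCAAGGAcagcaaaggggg
No seed was shared among them. The 45 antigenomic background sets, which match no rat sequence, were lower too, at medians of 5.11 in NP+MBP, 5.24 in MBP, 5.19 in NP and 5.37 in control, with 5 of 45 above 0 and a median difference of -0.14. Other control sets were higher, among them the 1153 intron sets, which were dim as well, at medians of 6.35 in NP+MBP, 6.29 in MBP, 6.36 in NP and 6.18 in control, with 723 above 0 and a median difference of 0.12. The 399 exon sets had a median difference of 0.038 and the 21 affx sets one of 0.11. The part of this background in the hairpin differences was not tested.

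The departure from additivity was taken as NP+MBP minus NP minus MBP plus control, so 0 means that the mixture equalled the sum of the single differences. Over the 9998 genes it had a median of -0.013 and an SD of 0.0885. It was at least 1.3-fold positive in 10 genes (0.1%) and negative in 12 (0.12%), and 1.5-fold in 0. Without the signal filter 358 were positive and 102 negative, so the near balance depends on the filter. Trnt1, the enzyme that adds the CCA end to transfer RNA, was at 7.56 in NP+MBP, 7.54 in MBP, 7.78 in NP and 7.23 in control, a departure of -0.53. Trnt1 passed the signal filter only through the treated arrays, so its departure is given as a description. Snrpf gave -0.50, Fbrs -0.48, Zfp280b -0.48 and Ubxn2a -0.47. In the positive direction the potassium channel gene Kcng4 was at 7.74 in NP+MBP, 7.62 in MBP, 7.67 in NP and 8.0 in control, a departure of 0.46. The unnamed locus LOC685173 followed at 0.45, then Il28b at 0.43, Mir504, Sp6 and LOC100911946 at 0.42 each and Lyl1 at 0.40. In all 10 positive genes control lay above the other 3 arrays and in all 12 negative genes below them. NP+MBP lay apart in the direction of the departure in 0 of the 22. In LOC685173 the MBP array stood furthest from the rest, at 7.57 in NP+MBP, 7.19 in MBP, 7.64 in NP and 7.71 in control. Among the 10 positive genes NP+MBP lay between the single arrays in 4, past both of them on the side of control in 5 and past both on the other side in 1. Among the 12 negative genes it lay between them in 2 and on the side of control in 10. By construction the control value enters both single differences, and the departure carries it with a positive sign. The highest genes of NP+MBP minus control had small departures, such as Scn3b at -0.11, Fgl2 at 0.02, Pla2g7 at -0.02 and Tex15 at 0.03, with Myoz2 at 0.29 and Usp26 at 0.17 above the sum.

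**Figure D3:**
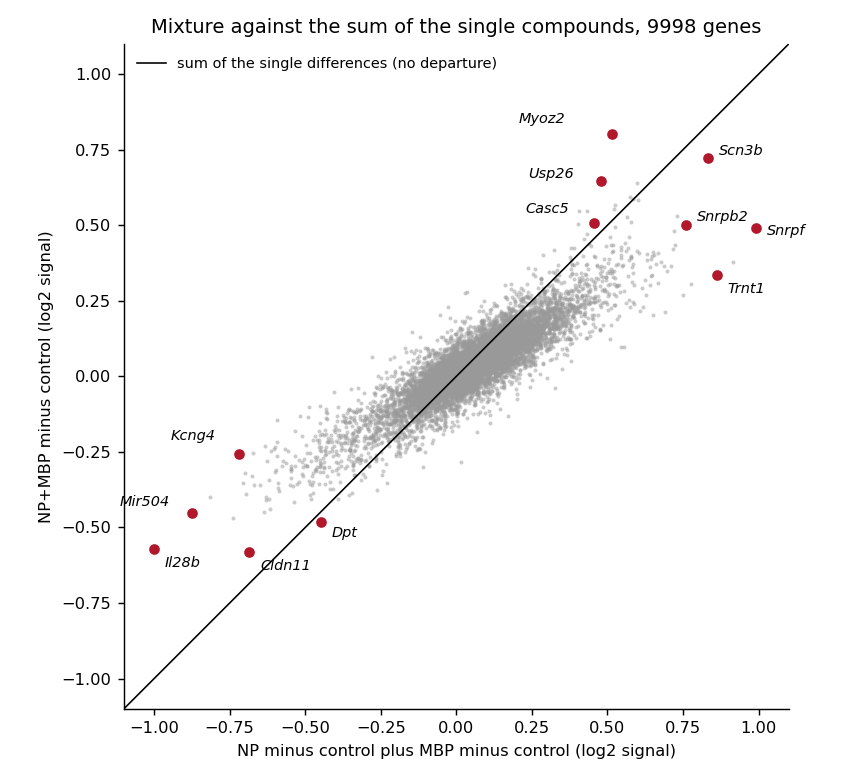
NP+MBP minus control (vertical axis, log2 signal) against the sum of NP minus control and MBP minus control (horizontal axis, log2 signal) for 9998 genes, with named genes in red and the line of equality. Both axes contain the control array. Scn3b, Cldn11 and Dpt lie near the line, Myoz2 lies above it, and Snrpf, Trnt1, Il28b and Mir504 lie on the side towards a smaller mixture difference.

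The plot against the summed single differences shows where each named gene lies relative to the line. The SD over genes was 0.115 for NP+MBP minus control and 0.170 for the sum, in which the control array is subtracted for each compound.

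Other lists had medians on either side of that of all genes, 0.035, and their shares above 0 stand beside 66.5% for all genes, a share that moves with the scaling. Cholesterol synthesis genes leaned lower, with 4 of 21 above 0 and a median of -0.033. Sqle, squalene epoxidase, was the furthest of them at 10.33 in NP+MBP, 10.36 in MBP, 10.40 in NP and 10.49 in control. Genes of fatty acid oxidation were above 0 in 13 of 15, with a median of 0.055. Cpt1a, the carnitine palmitoyltransferase that admits long-chain fatty acids to mitochondria, was at 10.26 in NP+MBP, 10.26 in MBP, 10.09 in NP and 10.08 in control. None of either list passed 1.3-fold. Platelet-activating factor and eicosanoid enzymes were above 0 in 11 of 19, with Pla2g7 higher and Ltc4s lower past 1.3-fold and a median of 0.034 that turned to -0.005 under quantile normalization. Interferon-stimulated genes were above 0 in 15 of 21 with a median of 0.066, led by Ifi47 at 0.30, and Il28b was the 1 member past 1.3-fold. Chemokine and NF-kB target genes were above 0 in 6 of 17 with a median of -0.072, with Cxcl10 at 0.30 as the highest and Ccl7 and Ccl17 at -0.27 as the lowest. Sertoli secreted products gave 12 of 21 above 0 and a median of 0.049. Over all 29 genes on the array, however, 14 were above 0, beside 49.1% of all genes without the filter, and the median was -0.012. Cp, the copper carrier ceruloplasmin, was at 10.41 in NP+MBP, 10.32 in MBP, 9.99 in NP and 10.13 in control, with NP below control. Spermatogonial niche factors gave 9 of 18 above 0, with Ret, which the arrays with MBP alone carried past the filter, as the 1 member past 1.3-fold, and the growth factor Gdnf was at -0.06.

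Stress and death lists held no member past 1.3-fold, and their shares above 0, like those of the transfer RNA and histone lists, stand beside 66.5% for all genes. Oxidative-stress and glutathione genes were above 0 in 28 of 35 with a median of 0.038, unfolded protein and heat shock genes in 25 of 32 with 0.036, and the BCL2 family and death genes in 24 of 34 with 0.046. Bcl2, the apoptosis inhibitor, came nearest to the mark at 9.54 in NP+MBP, 9.46 in MBP, 9.26 in NP and 9.16 in control, a difference of 0.37. Tnfrsf25, a death receptor, was at 7.45 in NP+MBP, 7.50 in MBP, 7.39 in NP and 7.78 in control. Genes of transfer RNA modification were above 0 in 27 of 35 with 0.041, and histone genes in 16 of 25 with 0.022. Steroid synthesis genes were above 0 in 2 of 6, where Star, the cholesterol transporter of steroidogenesis, was at 0.01. Homeobox and forkhead genes were above 0 in 9 of 34 with a median of -0.072 and Hoxd1 as the 1 lower past 1.3-fold. Genes with odorant, vomeronasal or taste receptor symbols were above 0 in 2 of 7 with -0.070, and 1 of these, Olr1 at 0.29, is in rat the oxidized LDL receptor gene and no odorant receptor. The glutathione median turned to -0.003 under cyclic loess, and the histone median to -0.003 under quantile normalization and -0.001 under cyclic loess. All other list medians of NP+MBP minus control printed here for genes that passed the filter kept their sign under the 3 rescalings, apart from those whose change of sign is given beside them.

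**Figure D4:**
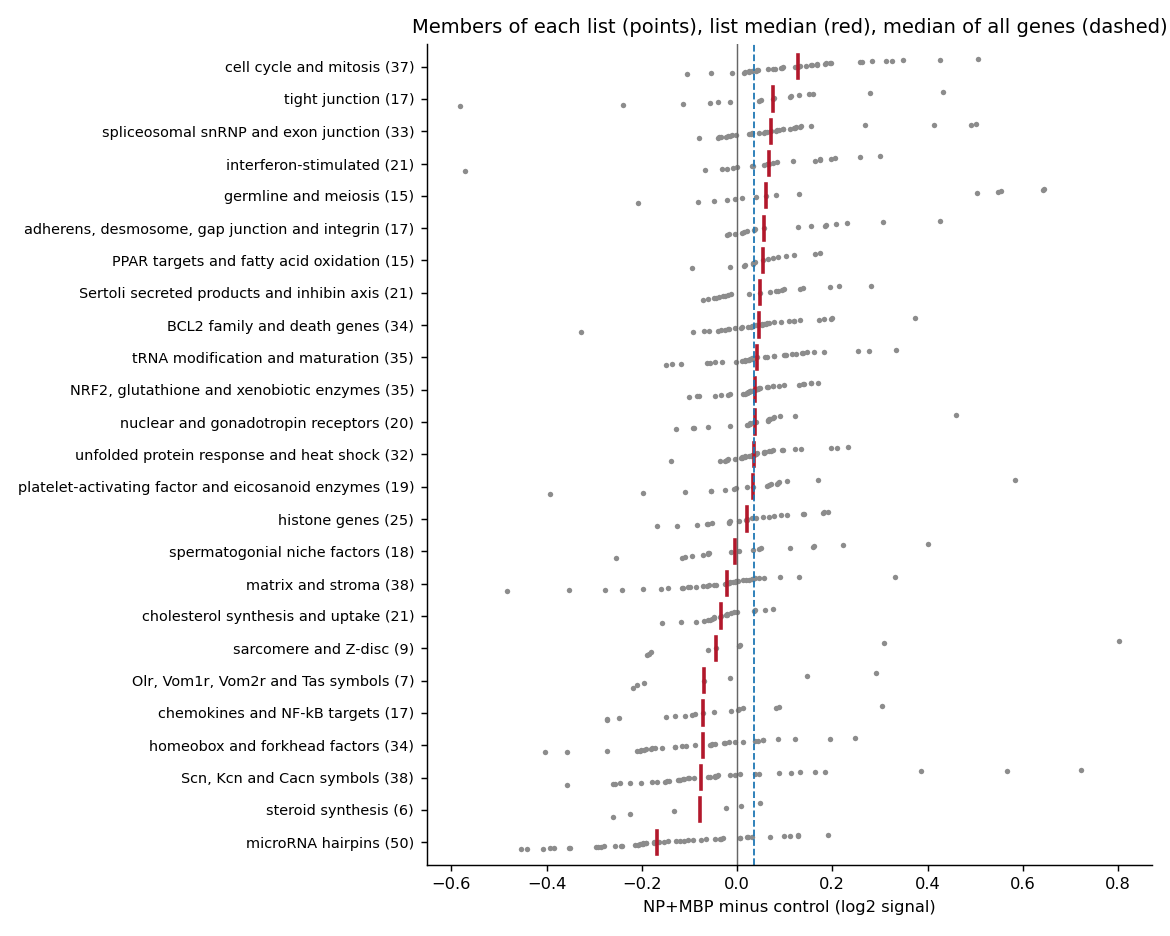
NP+MBP minus control in log2 signal (horizontal axis) for every member of 25 gene lists, with 1 grey point per gene, the number of members in brackets, a red bar at the list median and a dashed line at the median of all genes, 0.035. The lists run from cell cycle at the top to microRNA hairpins at the bottom, and the furthest single points lie well away from the medians of their lists.

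The plot of list members shows that Myoz2, Scn3b, Cldn11 and Il28b stood far from the other members of their own lists.

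The Sertoli cell label was checked against marker genes. Of 23 Sertoli markers on the array 20 passed the filter, and Sox9 was at 10.63 in NP+MBP, 10.65 in MBP, 10.60 in NP and 10.62 in control. Amh, Gata1 and Cst12 lay below the filter. Summed over the list, linear signal was 32755 in NP+MBP, 32619 in MBP, 32935 in NP and 32557 in control. Markers of peritubular myoid cells, the contractile cells around the tubule, also gave signal, since 10 of 11 passed, and Actg2 was at 12.99 on every array. Their sum was 42953 in NP+MBP, 43361 in MBP, 43425 in NP and 43267 in control, and 5 of 11 were above 0. Leydig cell markers were above 0 in 1 of 6 (sums of 2303 in NP+MBP, 2363 in MBP, 2352 in NP and 2382 in control), macrophage markers in 4 of 12 and endothelial markers in 3 of 7. Of all genes without the filter 49.1% were above 0. The part of other cell types in the results above was not tested.

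Differences were wider where signal was low. In the dimmest of 4 equal groups of genes, with mean log2 signal from 7.50 to 8.41, NP+MBP minus control had an SD of 0.155, and in the brightest group one of 0.0677. The dimmest group held 37 of the 66 higher genes, 15 of the 20 lower ones and 18 of the 22 departures, the brightest 2, 0 and 0. Just inside the 1.3-fold mark lay Fam133b at 0.380 and Wrnip1 at -0.380, and just outside it Blzf1 at 0.377, Bcl2 at 0.375 and Vsig1 at -0.377. Of the genes past 1.3-fold, 9 had further probe sets, and 11 of those 14 sets lay on the same side of control, 3 of them past 1.3-fold. The control array also had the narrowest distribution, with an SD over non-control sets of 2.16 in NP+MBP, 2.16 in MBP, 2.15 in NP and 2.12 in control.

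**Figure D5:**
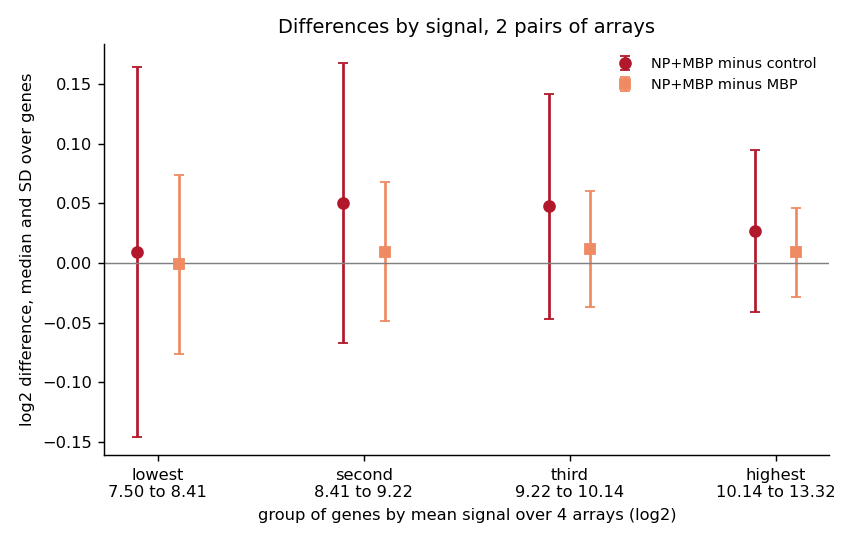
Median (points) and SD over genes (bars) of the log2 difference NP+MBP minus control and NP+MBP minus MBP (vertical axis) in 4 equal groups of the genes by mean signal (horizontal axis, log2). The bars show the spread over genes, not over replicates, and they narrow with signal in both comparisons.

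The plot by signal level shows that NP+MBP and MBP were closer to each other than NP+MBP and control in each group, with SDs of 0.075 and 0.155 in the dimmest.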

How the data were processed

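RNA of 4 cultures was read on 1 gene-level array each. Per the file headers, the deposited values are log2 signals that the authors summarised with gene-level RMA. The submitters' processing notes name MAS5, which disagrees, and RMA was taken as the method. A deposited workbook held the same values, with 0 cells differing by more than 1e-09, and gave the symbols and RGSC3.4 positions (97.5% of 24982 sets overlap the position in their description). Groups were taken from sample titles.

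Computed here were log2 differences between arrays, the departure from additivity, and the distance of each array from the other 3. With 1 array per group there was no test, and genes were counted past 1.3-fold and 1.5-fold as a description. Each gene was read by its brightest member set (466 genes had more than 1). Of the members, 668 are open to cross-hybridization. The calculation was tested on simulated data with known differences. Symbols were looked up in RefSeq (GRCr8), where 8569 genes matched by symbol, 980 by synonym and 449 not at all.

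Named were all genes past 1.5-fold, the 15 highest and lowest, the 10 largest departures each way, the 10 genes with NP+MBP furthest above and below the other arrays and 5 for control, and up to 4 members of each list, and others named beside them were chosen after their values were seen. Members and lists were chosen with earlier results of these data known. Not every gene of the rule is printed, and 1 is not reported here. Results were recomputed after centring each array on its median, after quantile or cyclic loess normalization (limma 3.58.1, R 4.3.3), with no signal filter or one at the 75th percentile of signal, at 1.5-fold, on the workbook's values, leaving out sets open to cross-hybridization, and on the mean of all sets of a gene. Other steps used Python 3.11.15 with numpy 2.4.6 and pandas 2.3.3, and plots matplotlib 3.10.9. Microarray data on mature microRNAs were not used here.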

Additional observations from a re-analysis of the deposited data

Results flagged for a closer look

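Dazl, an RNA-binding protein gene of germ cells, lay below the signal filter, so among the results above it entered only the counts taken without the filter and the germ cell markers, yet differed from control more than any gene that passed. Its log2 signal was 7.63 in NP+MBP, 7.49 in MBP, 6.85 in NP and 6.56 in control, and NP+MBP minus control was 1.07. Its sum of single differences was 1.22 and its departure from additivity -0.15. Of the 8010 named sets below the filter, 2 were at least 2-fold higher in NP+MBP than in control and 0 lower. The other was a further set of Casc5, at 1.16. The values rest on 1 array per condition, and a cause was not tested.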

How the results depend on the processing

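No paired analysis was possible because each condition had 1 array. Median centring gave 100 genes at least 1.3-fold higher and 8 lower in NP+MBP than in control (66 and 8 of them among those reported), with MBP apart below in 1 gene and control apart above in 1 and below in 4. Quantile normalization and cyclic loess each gave 2 genes 1.5-fold lower and MBP apart below in 1, and under cyclic loess control was apart above in 1. Quantile normalization left 58 higher and 30 lower genes at 1.3-fold, of which 49 and 17 were among those reported, and cyclic loess 64 and 22, of which 53 and 13 were. Without the signal filter 19 genes were 1.5-fold higher and 6 lower, 128 were 1.3-fold higher and 282 lower, departures were positive in 358 and negative in 102, and arrays stood apart above and below in 3 and 3 genes for NP+MBP, 3 and 3 for MBP, 2 and 1 for NP and 28 and 14 for control. With the filter at the 75th percentile, where fewer genes are measured, 0 were 1.5-fold higher, 10 were 1.3-fold higher and 2 lower, departures were positive in 0 and negative in 1, and control stood apart in 0 and 0. At 1.5-fold there were 0 departures either way and control stood apart in 0. Causes other than the number of genes measured were not tested. No named gene changed sign under an alternative where its value was past 1.3-fold.

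Median centring moved the median of all genes to 0.068, against 0.035 as deposited. With 1 array per condition no replicate error could be had, and no detection calls were used. Of the gene results, 2125 moved by less than the SD of the departure over genes, 0.0885, and 5 by more, all 5 on taking the mean of all sets of a gene. Much of this was fixed beforehand, since the workbook held the same values and the signal filter does not alter the values of a gene. Median centring shifts every gene alike and by less than 0.0885, so the 2125 are no measure of robustness.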
